A study of Mus musculus with 2 samples.

Results

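The genes described here encode the costimulatory B7 ligands CD80 (Cd80), CD86 (Cd86) and ICOS ligand (Icosl), together with the maturation protein CD83 (Cd83). They were chosen by name, with earlier results of these data known, and all 4 were found among the 18049 genes listed in both expression files. They were read in single dendritic cells (DCs) by CITE-seq, in which mRNA molecules (UMIs) and antibody tags are counted from the same droplet. The naive library came from unimmunized C57BL/6N (B6) mice. The papain library came from B6 mice given 5 µg of ovalbumin (OVA) with 50 µg of the protease allergen papain in both rear footpads and taken 1 day later. Live MHCIIhi CD11c+ B220- cells were sorted in both cases, from mice of both sexes aged 6 to 12 weeks. The sources conflict on the naive nodes. For both libraries the sample labels give skin-draining lymph node as the tissue and popliteal nodes in the protocol. The methods give pooled skin-draining nodes for the naive and popliteal nodes for the papain sample. If the methods hold, node site and immunization cannot be told apart. Each condition is 1 library, so differences have no replicate check, no p-value is given, and every interval covers counting error only.

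The study assigned 3042 of 3471 naive droplets and 7306 of 7596 papain droplets to 5 classes by their antibody tags. The naive library held 707 CD301bhi, 659 CD301bint and 658 CD301blo cDC2s, 578 cDC1s and 440 Langerhans cells (LCs). The papain library held 2893 CD301bhi, 1827 CD301bint and 1470 CD301blo cDC2s, 235 cDC1s and 881 LCs. CD301b is the lectin MGL2, and its antibody signal divides conventional DCs of type 2. Median depth was 13979 UMIs per naive cell and 14945 per papain cell, and 2 barcodes occurred in both libraries. The DC transcripts Flt3, Zbtb46, H2-Ab1, Cd74 and Ccr7 were read in all classes. The LC genes Epcam, Cd207 and Cdh1 summed to 153 CPM in naive LCs and 216 CPM in papain LCs, against at most 39.5 CPM elsewhere. Xcr1 and Clec9a were highest in cDC1s of each library, and Sirpa in the cDC2 classes. Macrophage or monocyte genes (Adgre1, C1qa, C1qb, Fcgr1 and Ly6c2) summed to at most 51.0 CPM and the NK cell genes Ncr1 and Klrb1c to at most 5.09 CPM, while the plasmacytoid DC genes Siglech and Bst2 summed to 92.0 to 249.6 CPM, with Siglech at 5.69 CPM or less. The CD301b classes rest on the antibody in both libraries. Median antibody counts were 8313 per naive and 3912.5 per papain cell, and the part of this difference in the classes was not tested. Mgl2 mRNA itself stood at 1.21 CPM or less in the papain library. In the naive library it stood at 56.1 CPM in CD301bhi, 59.1 CPM in CD301bint and 15.2 CPM in CD301blo cDC2s. CPM means UMIs of a gene per 1000000 UMIs, summed over the cells of a group. Because these are 3' tag counts, levels are compared between groups and not between genes.

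T cells need a second signal beside antigen. CD80 (B7-1) and CD86 (B7-2) on DCs give it through CD28 and are taken up or outcompeted through CTLA-4, while ICOS ligand binds ICOS on activated and follicular helper T cells. CD80 and CD86 are known to be induced when DCs mature. CD83 is the classical surface marker of mature DCs, and its transmembrane part is known to keep MHC class II and CD86 at the surface by opposing the ubiquitin ligase MARCH1.

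Promoter sequence from RefSeq (build GRCm38.p6, 250 bases before to 50 after a transcription start) was at hand for 2 of the 4 members. These are Cd80 and Icosl, of which the first was lowest and the other highest in naive cDC1s. The Cd80 gene spans chr16:38457430-38495958 and the Icosl gene chr10:78069368-78079525, while Cd86 lies at chr16:36568956-36666158 and Cd83 at chr13:43785112-43803133. The windows below are chr16:38458683-38458982 for Cd80 and chr10:78069118-78069417 for Icosl, both on the plus strand and written 5′ to 3′. Capitals mark matches, on either strand, to the letters searched. These were GGNNNTTCC for NF-kB, TGANTCA for AP-1, GAAANNGAA for an interferon response element and GGGCGG for SP1. The last motif searched was TATAAA, the core of the promoter box that the general transcription machinery binds.
Cd80: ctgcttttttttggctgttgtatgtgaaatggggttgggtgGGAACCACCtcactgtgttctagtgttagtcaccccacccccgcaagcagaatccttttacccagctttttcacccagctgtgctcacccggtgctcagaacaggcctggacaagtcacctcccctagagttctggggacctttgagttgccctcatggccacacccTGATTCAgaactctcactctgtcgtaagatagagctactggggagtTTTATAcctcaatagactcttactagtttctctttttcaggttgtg
Icosl: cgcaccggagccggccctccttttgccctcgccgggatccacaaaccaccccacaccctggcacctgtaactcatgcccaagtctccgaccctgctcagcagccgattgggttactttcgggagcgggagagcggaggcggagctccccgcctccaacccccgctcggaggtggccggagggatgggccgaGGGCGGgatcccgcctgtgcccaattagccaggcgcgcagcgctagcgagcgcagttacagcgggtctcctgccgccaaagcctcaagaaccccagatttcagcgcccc
The Cd80 window held an NF-kB match on the minus strand at -209 to -201 from the start, an AP-1 match at -42 to -36 and the last motif on the minus strand at 5 to 10. The Icosl window held an SP1 match at -59 to -54 and none of the other 4 motifs. No matches overlapped. Of 32851 promoters in the table, 18.5% held the NF-kB letters, 7.81% AP-1, 8.56% interferon response, 35.7% SP1 and 13.6% the last motif. Guanine and cytosine made up 49.7% of the Cd80 window and 68.0% of the Icosl window.

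**Figure D1:**
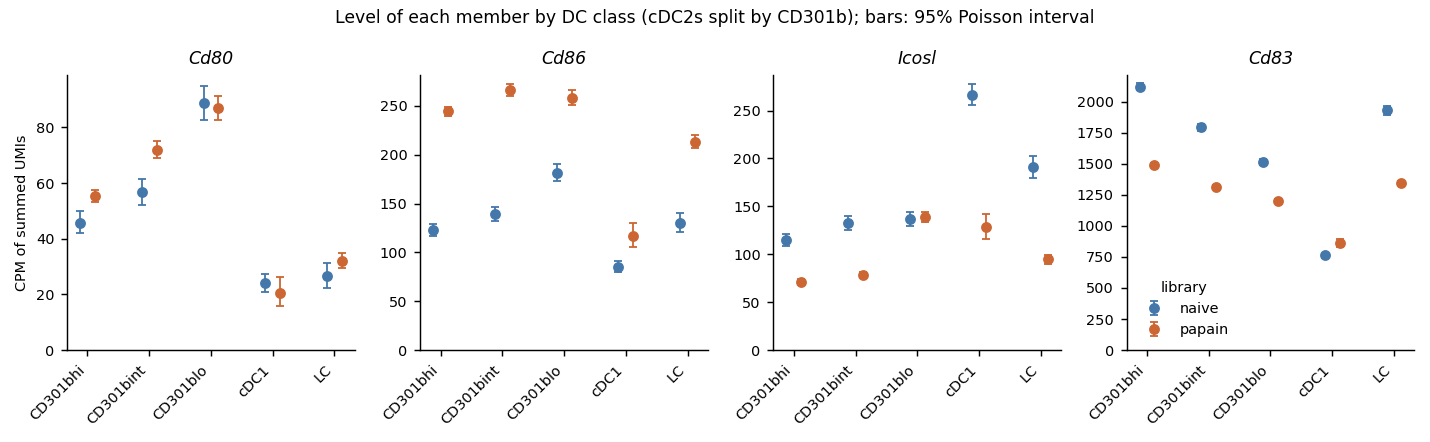
Level of each member (CPM of summed UMIs, vertical axis from 0) in the 5 DC classes of the naive (blue) and papain (orange) libraries, with 95% Poisson intervals. Cd86 points of the papain library lie above the naive ones in all 5 classes, Icosl points lie below in 4 of 5, and Cd80 runs from 88.8 CPM in naive CD301blo cDC2s down to 20.5 CPM in papain cDC1s.

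Among the cDC2s the level of Cd80 was graded, highest in the CD301blo class of both libraries, and Cd80 was scarce in cDC1s and LCs. In the naive library its level was 88.8 CPM (95% interval 82.8 to 95.05) in CD301blo, 56.8 CPM (52.3 to 61.6) in CD301bint and 45.8 CPM (42.0 to 49.9) in CD301bhi cDC2s. Naive LCs had 26.5 CPM (22.3 to 31.3) and naive cDC1s 24.0 CPM (21.0 to 27.3), and only this last pair overlapped. The papain library kept the same order, at 87.0 CPM (82.7 to 91.4), 72.0 CPM (69.0 to 75.1) and 55.3 CPM (53.3 to 57.4) in the CD301blo, CD301bint and CD301bhi cDC2s. Its LCs had 32.2 CPM (29.6 to 34.9) and its cDC1s 20.5 CPM (15.8 to 26.2), and no neighbouring intervals overlapped. The highest class exceeded the lowest 3.70-fold in naive and 4.24-fold in papain cells.

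Most cells showed no Cd80 UMI. The share with at least 1 ran from 16.8% (exact Clopper-Pearson interval 13.4 to 20.6) of naive LCs to 47.9% (44.0 to 51.8) of naive CD301blo cDC2s, and from 14.5% (10.2 to 19.6) of papain cDC1s to 44.7% (42.1 to 47.3) of papain CD301blo cDC2s. Papain CD301bint cDC2s had nearly the same share, 44.1% (41.8 to 46.4). After thinning each cell to 8392 UMIs, with shallower cells left out, the CD301blo shares were 39.6% and 38.9% and the CD301bhi shares 22.4% and 26.8%, naive before papain. Droplets without antibody data that held a Cd3e or Trac UMI were read for comparison, and whether they show free RNA was not tested. Of these, 5.91% of naive and 2.07% of papain droplets had a Cd80 UMI, at median depths of 7626 and 6980 UMIs, below the share in every DC class.

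Cd86 was the member that stood higher throughout the papain library. Naive levels were 182 CPM (173 to 190) in CD301blo, 139.6 CPM (133 to 147) in CD301bint and 123 CPM (116 to 129) in CD301bhi cDC2s, 131 CPM (121 to 141) in LCs and 85.5 CPM (79.7 to 91.6) in cDC1s. Papain levels were 259 CPM (251 to 266), 267 CPM (261 to 272) and 244 CPM (240.1 to 249) in CD301blo, CD301bint and CD301bhi cDC2s, 213 CPM (207 to 220.0) in LCs and 117 CPM (105 to 129.9) in cDC1s. cDC1s were lowest in both libraries. The CD301blo cDC2s led the naive order, while in the papain library CD301bint and CD301blo cDC2s led with overlapping intervals. LC and CD301bint cDC2 intervals overlapped in the naive library, as did those of LCs and CD301bhi cDC2s.

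The share of cells with a Cd86 UMI was 52.6% (48.4 to 56.7) in naive cDC1s, the lowest class, and 69.0% (65.3 to 72.5) in naive CD301blo cDC2s, the highest. In papain cells it reached 83.9% (82.1 to 85.6) in CD301bint cDC2s and was 57.0% (50.4 to 63.4) in cDC1s. Thinned to one depth, CD301bhi cDC2s went from 51.5% in naive to 71.3% in papain cells, and LCs from 50.4% to 69.8%. The T cell transcript droplets held a Cd86 UMI in 13.5% of naive and 8.71% of papain cases.

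Icosl had a different distribution, with cDC1s and LCs at the top of the naive library. Naive levels were 267 CPM (256 to 277) in cDC1s, 191 CPM (179 to 203) in LCs, 137 CPM (129 to 144) in CD301blo, 132 CPM (125 to 139) in CD301bint and 114 CPM (108 to 121) in CD301bhi cDC2s. In the papain library the CD301blo cDC2s had 139 CPM (134 to 144) and cDC1s 129 CPM (116 to 142), with overlapping intervals. LCs followed at 94.6 CPM (90.2 to 99.1), CD301bint cDC2s at 78.5 CPM (75.3 to 81.7) and CD301bhi cDC2s at 71.5 CPM (69.2 to 73.9), each apart from its neighbour. CD301bhi cDC2s were thus lowest in both libraries, the reverse of their place for Cd83. The share of cells with an Icosl UMI was 85.5% (82.3 to 88.2) in naive cDC1s and 63.8% (57.3 to 70.0) in papain cDC1s, against 63.8% (60.1 to 67.3) and 53.4% (51.6 to 55.3) in CD301bhi cDC2s. The T cell transcript droplets were at 8.44% and 5.81%.

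Cd83 was read in nearly every cell. The share with a UMI was 92.9% (90.5 to 94.9) in naive cDC1s and 96.4 to 99.9% in the other classes of both libraries, while 41.8% of naive and 32.4% of papain T cell transcript droplets also had 1, so the share separates classes poorly. By level the CD301bhi cDC2s led, with 2121 CPM (2094 to 2148) in naive and 1491 CPM (1481 to 1502) in papain cells. Naive LCs had 1929.9 CPM (1893 to 1968), CD301bint cDC2s 1792 CPM (1767 to 1818), CD301blo cDC2s 1511 CPM (1486 to 1536) and cDC1s 762 CPM (744 to 779), with no neighbours overlapping. Papain LCs had 1343 CPM (1326 to 1360.0) and CD301bint cDC2s 1316 CPM (1303 to 1329), which overlapped. Papain CD301blo cDC2s had 1197 CPM (1181 to 1213) and cDC1s 859 CPM (826 to 892). The median naive cDC1 held 494 CPM of Cd83, against 2100.3 CPM in the median naive CD301bhi cDC2.

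Papain against naive was compared inside each class, and then as the mean of the 5 class values with equal weight, because the libraries differ in class shares. Ratios are log2((CPM + 1) papain / (CPM + 1) naive), with intervals from the exact binomial split of the UMIs, and 1.5-fold was taken as the size worth counting. Across 8443 genes with at least 10 CPM in some group, 7.07% were 1.5-fold higher and 8.99% 1.5-fold lower in papain cells by the mean of the 5 classes, and the median gene stood at 0.02. Of the 4 members, 1 was past 1.5-fold higher (Cd86) and 1 past 1.5-fold lower (Icosl).

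Cd86 was higher in papain cells by 0.99 (0.91 to 1.07) in CD301bhi, 0.93 (0.85 to 1.01) in CD301bint and 0.51 (0.43 to 0.59) in CD301blo cDC2s, by 0.45 (0.27 to 0.63) in cDC1s and by 0.70 (0.59 to 0.82) in LCs. The mean was 0.72 (0.61 to 0.82), or 1.64-fold, and all 5 class intervals lay above 0. The CD301blo value passed 1.5-fold under 2 alternatives. Without naive mRNA cluster 5, which takes the cDC2 cluster with the most Cd86 out of the naive library alone and so raises the ratio, it was 0.88. Without the cells of both libraries holding a B cell marker UMI it was 0.68. B cell genes (Cd79a, Cd79b, Ms4a1 and Ighm) stood at 62.5 CPM in naive and 28.7 CPM in papain CD301blo cDC2s, against 4.49 to 35.2 CPM in the other classes. Their part in the ratio of 0.51 beyond these values was not tested.

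Icosl went the other way in 4 of 5 classes. It was lower in papain cells by a log2 ratio of -1.05 (-1.20 to -0.89) in cDC1s, -1.01 (-1.12 to -0.89) in LCs, -0.75 (-0.84 to -0.65) in CD301bint and -0.67 (-0.76 to -0.58) in CD301bhi cDC2s. In CD301blo cDC2s the ratio was 0.02 (-0.07 to 0.12), and -0.13 without the cells holding a B cell marker UMI. The mean was -0.69 (-0.80 to -0.58), so that naive cells held 1.61-fold more. The difference between CD301blo cDC2s and the other classes was not tested.

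Cd80 and Cd83 were within 1.5-fold in every class, except that Cd83 in CD301bhi cDC2s was at -0.60, past it, with the median gene set to 0. Cd80 had ratios of 0.27 (0.13 to 0.41) in CD301bhi cDC2s, 0.34 (0.20 to 0.47) in CD301bint cDC2s and 0.27 (0.00 to 0.54) in LCs, with -0.03 (-0.15 to 0.09) in CD301blo cDC2s and -0.22 (-0.64 to 0.19) in cDC1s. The Cd80 mean was 0.13, with averaged class bounds of -0.09 and 0.34. Only 63 UMIs in papain cDC1s set the width of that class. Cd83 had ratios of -0.51 (-0.53 to -0.49) in CD301bhi, -0.45 (-0.47 to -0.42) in CD301bint and -0.34 (-0.37 to -0.31) in CD301blo cDC2s and -0.52 (-0.56 to -0.49) in LCs. In cDC1s it was 0.17 (0.11 to 0.24), opposite in sign to the other 4 classes, and the mean was -0.33 (-0.36 to -0.29).

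**Figure D2:**
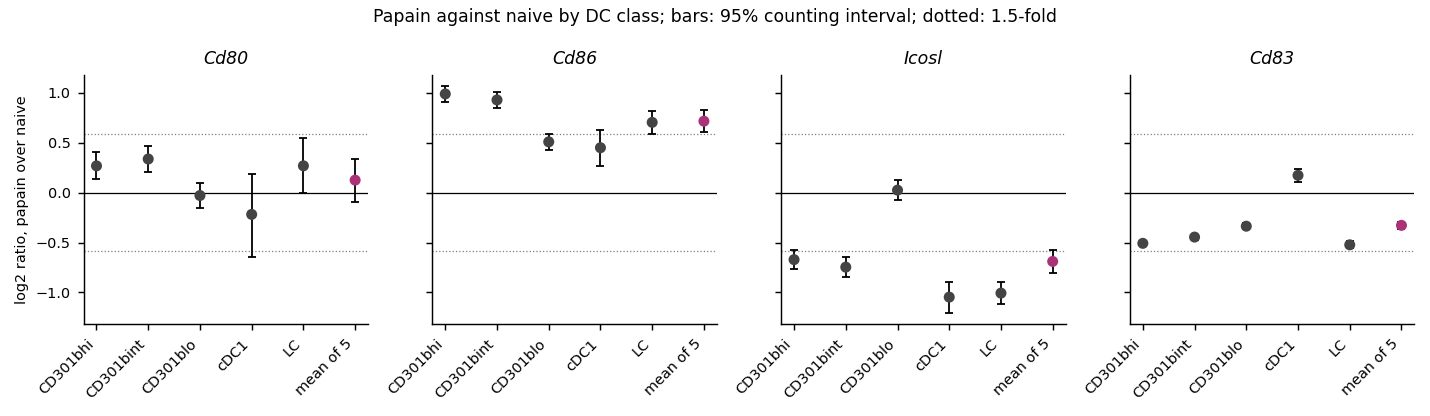
Log2 ratio of CPM + 1, papain over naive, for each member (panels) in the 5 DC classes (grey) and as their mean (purple), with 95% counting intervals and dotted lines at 1.5-fold. The bars of the mean are averaged class bounds. Cd86 lies above 0 in all classes, Icosl below 0 in all but CD301blo cDC2s, and Cd83 above 0 only in cDC1s, at 0.17.

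CD301bhi and CD301blo cDC2s, the ends of the study's division of cDC2s by CD301b, were then compared inside each library. The paper's own pathway comparison set CD301bhi cDC2s of papain-immunized mice against all other DCs. Across genes with at least 10 CPM, 4.66% were 1.5-fold higher and 8.59% 1.5-fold lower in CD301bhi cells of the naive library, and 3.75% and 3.6% in the papain library. In naive cells 1 of 4 members was past 1.5-fold lower in CD301bhi cDC2s (Cd80) and none past it higher. In papain cells 2 of 4 were lower (Cd80 and Icosl) and none higher. These calls are against CD301blo cDC2s: against all other classes together, Cd80 had -0.17 in naive and -0.18 in papain CD301bhi cDC2s and papain Icosl -0.49, all inside 1.5-fold, while naive Icosl had -0.65, past it. Cd80 had log2 ratios, CD301bhi over CD301blo, of -0.94 (-1.10 to -0.78) in naive and -0.64 (-0.73 to -0.55) in papain cells, and a pseudocount of 10 in place of 1 brought the papain value to -0.57, inside 1.5-fold. Cd86 had -0.56 (-0.66 to -0.46) in naive and -0.08 (-0.13 to -0.03) in papain cells. Icosl had -0.25 (-0.37 to -0.14) in naive and -0.95 (-1.02 to -0.87) in papain cells. Cd83 alone pointed to the CD301bhi side, at 0.49 (0.46 to 0.52) and 0.32 (0.30 to 0.34).

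The CD301blo class also held more mRNA of MHC class II. H2-Ab1 stood at 3498 CPM in naive CD301blo and 1585 CPM in naive CD301bhi cDC2s, and at 1516 and 393 CPM in papain cells. Ciita, the master transactivator of MHC class II genes, stood at 78.4 and 29.6 CPM in the naive and at 34.1 and 5.2 CPM in the papain pair. Cells of naive mRNA cluster 5 carry much of this, with H2-Ab1 at 9317 CPM, and without them the naive Cd86 ratio of CD301bhi over CD301blo was -0.28 in place of -0.56.

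The same comparison was made inside the study's mRNA clusters of cDC2s that held at least 50 cells of both classes. These clusters, 7 naive and 9 papain, come with the deposited values. The paper describes 5 cDC2 subclusters over both conditions, and the cluster numbers here are not taken to match its numbers. Cd80 was lower in CD301bhi cells in all 3 compared naive clusters and in 6 of 7 papain clusters with the interval off 0. Its medians were -1.36 and -0.65. The lowest Cd80 ratio was -2.48 (-3.68 to -1.47) in naive cluster 3, from 7.66 CPM in 114 CD301bhi cells against 47.4 CPM in 143 CD301blo cells. Icosl was lower in 3 of 3 naive and 4 of 7 papain clusters. The papain clusters 1 and 3 gave it 0.29 (-0.02 to 0.62) and 0.18 (-0.10 to 0.47). Cd86 was lower in 1 of 3 naive and 5 of 7 papain clusters and higher in 1, papain cluster 8, at 0.66 (0.17 to 1.18). Cd83 was higher in 3 of 3 naive and 5 of 7 papain clusters and lower in none with the interval off 0. The direction over all cDC2s was therefore seen inside every compared cluster for Cd80, and inside all but papain cluster 4 for Cd83.

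**Figure D3:**
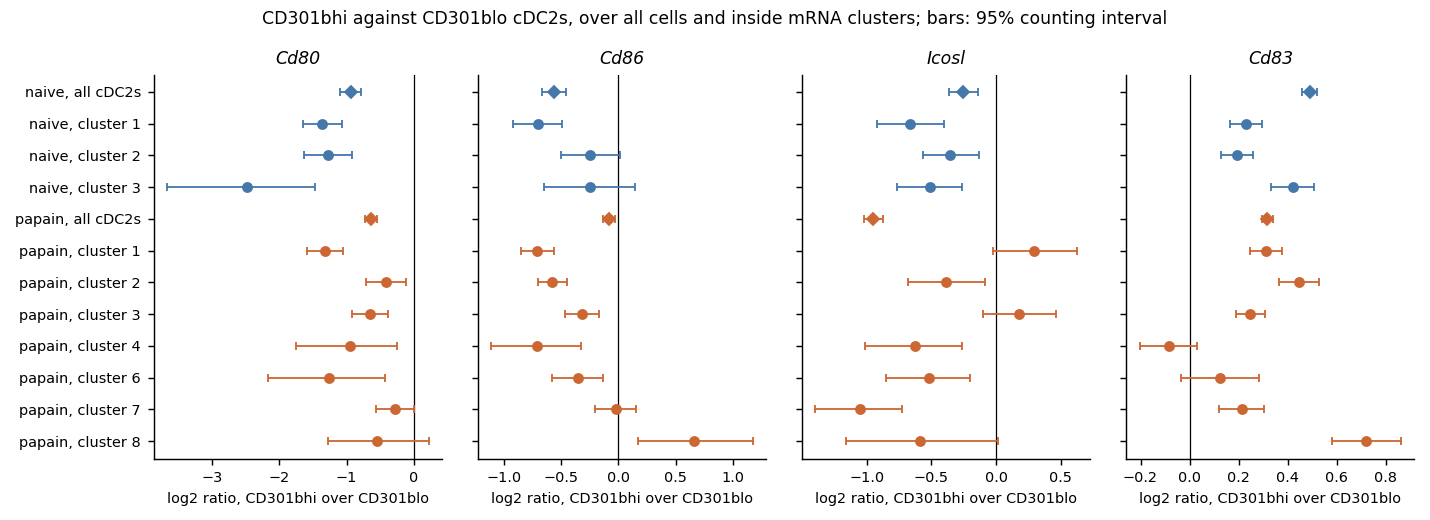
Log2 ratio, CD301bhi over CD301blo cDC2s, of each member (panels; horizontal scales differ) over all cDC2s (diamonds) and inside the mRNA clusters with at least 50 cells of both classes (circles), with 95% counting intervals. Cd80 points all lie left of 0 and Cd83 points right of 0 except papain cluster 4, while Icosl and Cd86 points of the papain clusters fall on both sides.

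Within the cDC2s the mRNA clusters separated the members from one another. These clusters were made from the expression values of the same cells, so their levels are a description, and cluster numbers are not shared between libraries. Cd80 ranged from 22.5 to 95.6 CPM over the 7 naive clusters and from 21.7 to 150.0 CPM over the 9 papain clusters, a 6.90-fold range that exceeded those of the other members. Cd86 ranged from 75.7 to 249.6 CPM and from 127 to 406 CPM, Icosl from 60.1 to 219 CPM and from 56.0 to 217 CPM, and Cd83 from 1108 to 2507 CPM and from 416 to 1938 CPM, naive before papain.

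Naive cluster 5 (246 cells, 58.1% of them CD301blo) led the naive clusters for both Cd80, at 95.6 CPM (87.1 to 105), and Cd86, at 249.6 CPM (236 to 264). It combined the most H2-Ab1 with the least Ccr7 mRNA, at 1389 CPM, and Ccr7 encodes the receptor that guides DCs from skin to node. The B cell genes Cd79b and Ighm stood at 14.1 and 53.0 CPM in it, below only naive cluster 7, at 31.9 and 148 CPM. Their part in its levels was not tested. Naive cluster 3 (432 cells) had the least Cd80, 22.5 CPM (18.2 to 27.5), and the most Icosl, 219 CPM (205 to 233). Naive cluster 2 (432 cells) had the most Cd83, 2507 CPM (2468 to 2547).

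In the papain library, cluster 7 (375 cells, 50.7% CD301blo) had the most Cd80, 150.0 CPM (139.9 to 161), with Cd86 at 351 CPM (335 to 367). Cluster 2 (1294 cells, 67.2% CD301bhi) had the most Cd86, 406 CPM (397 to 416). Cluster 4 (671 cells, 78.5% CD301blo) had the most Icosl, 217 CPM (205 to 228), and the most H2-Ab1, 3149 CPM. It also had the most of the B cell genes Cd79b, 19.6 CPM, and Ighm, 26.8 CPM, and their part in its levels was not tested. Cluster 6 (430 cells) had the least Cd83, 416 CPM (398 to 434), the least Cd80, 21.7 CPM (17.9 to 26.2), and the least Ccr7, 711 CPM, yet its Cd86 level of 219 CPM (206 to 232) lay within the range of the other clusters. Cd83 and Cd86 were therefore not ordered alike over the papain clusters.

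**Figure D4:**
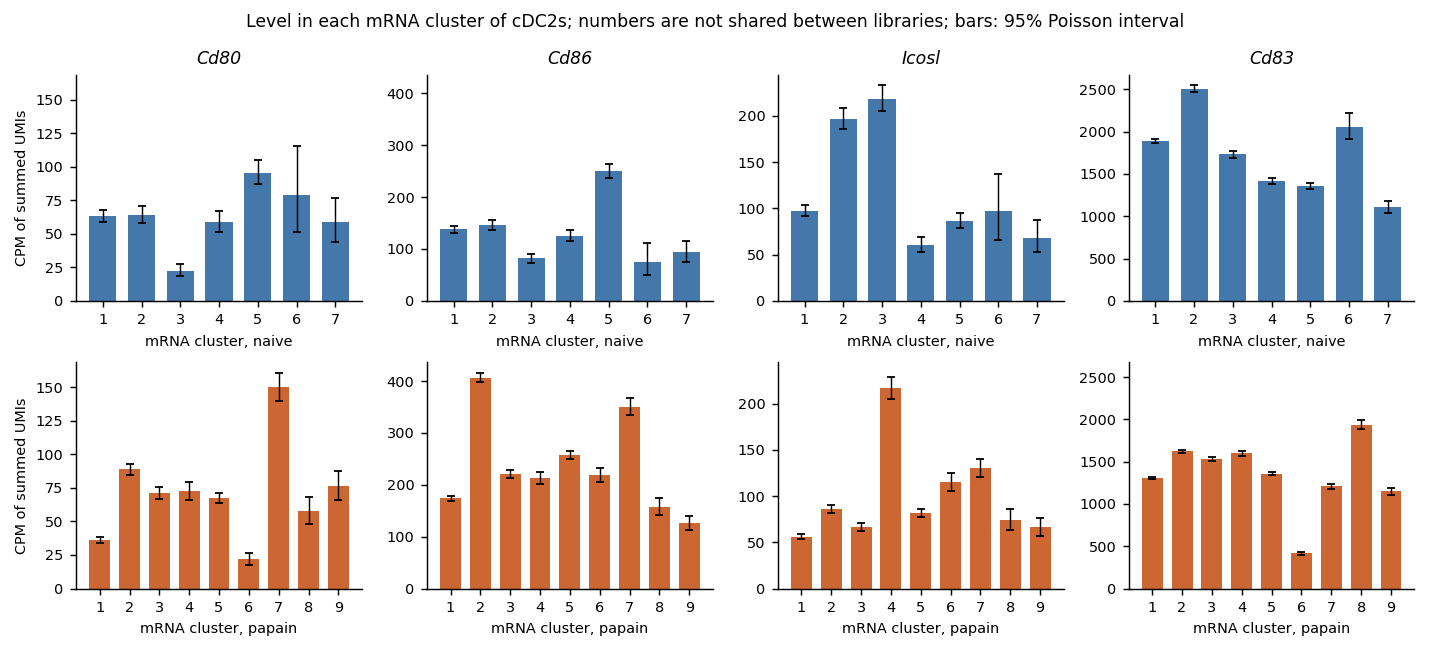
Level of each member (CPM of summed UMIs, bars from 0, 95% Poisson intervals) in the 7 naive (blue) and 9 papain (orange) mRNA clusters of cDC2s. Cd80 peaks in papain cluster 7 at 150.0 CPM, Icosl in papain cluster 4 at 217 CPM, and Cd83 is lowest in papain cluster 6 at 416 CPM.

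The 12 antibody tags included MHC class II (I-A/I-E) and none against the 4 members. Cells of each class were split into quartiles of the MHC_II tag. In the papain library Cd86 climbed with the tag in CD301bhi cDC2s, through 176, 219.6, 272 and 326 CPM, and in CD301bint cDC2s, through 203, 251, 284 and 342 CPM. In papain CD301blo cDC2s the same quartiles gave 255, 270.2, 253 and 257 CPM, and in papain LCs 229, 227, 199.7 and 186 CPM. Naive cells showed no such climb, with 140.1, 85.3, 129.9 and 136 CPM in CD301bhi and 191, 223, 175 and 125 CPM in CD301blo cDC2s. H2-Ab1 mRNA fell from the bottom to the top naive quartile, from 2872 to 845 CPM in CD301bhi and 5274 to 1651 CPM in CD301blo cDC2s. Naive LCs went from 346 to 405 CPM. In papain cells it went from 307 to 369 CPM in CD301bhi and 1175 to 2002 CPM in CD301blo cDC2s. Whether a quartile holds like cells in both libraries was not tested.

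Cd80 followed the MHC_II tag in the same papain classes, through 41.6, 49.1, 58.0 and 76.5 CPM in CD301bhi and 51.5, 72.3, 75.1 and 93.4 CPM in CD301bint cDC2s, and also in papain LCs, through 20.8, 33.0, 37.2 and 41.8 CPM. Papain cDC1s had 10.7, 20.03, 23.1 and 29.7 CPM, with neighbouring intervals overlapping at 58 or 59 cells a quartile. Papain CD301blo cDC2s ran the other way, through 90.6, 97.6, 81.7 and 75.3 CPM. Icosl was higher in the top than in the bottom quartile of all 3 cDC2 classes of both libraries, most in naive CD301bhi cDC2s, from 69.9 to 165 CPM. It was also higher in the top quartile of naive cDC1s (208 to 345 CPM) and papain LCs (68.8 to 135 CPM). Naive LCs went from 200 to 215 CPM, and papain cDC1s had 123 CPM in both. Cd83 ran up over the quartiles of naive CD301bhi cDC2s, from 1716 to 2558 CPM, and down those of naive cDC1s, through 976, 792, 659.6 and 545 CPM. Median depth moved with the tag as well, from 17708 UMIs in the bottom to 14607 in the top quartile of papain CD301bhi cDC2s and from 19240 to 13602 in naive ones, and its part in these values was not tested.

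**Figure D5:**
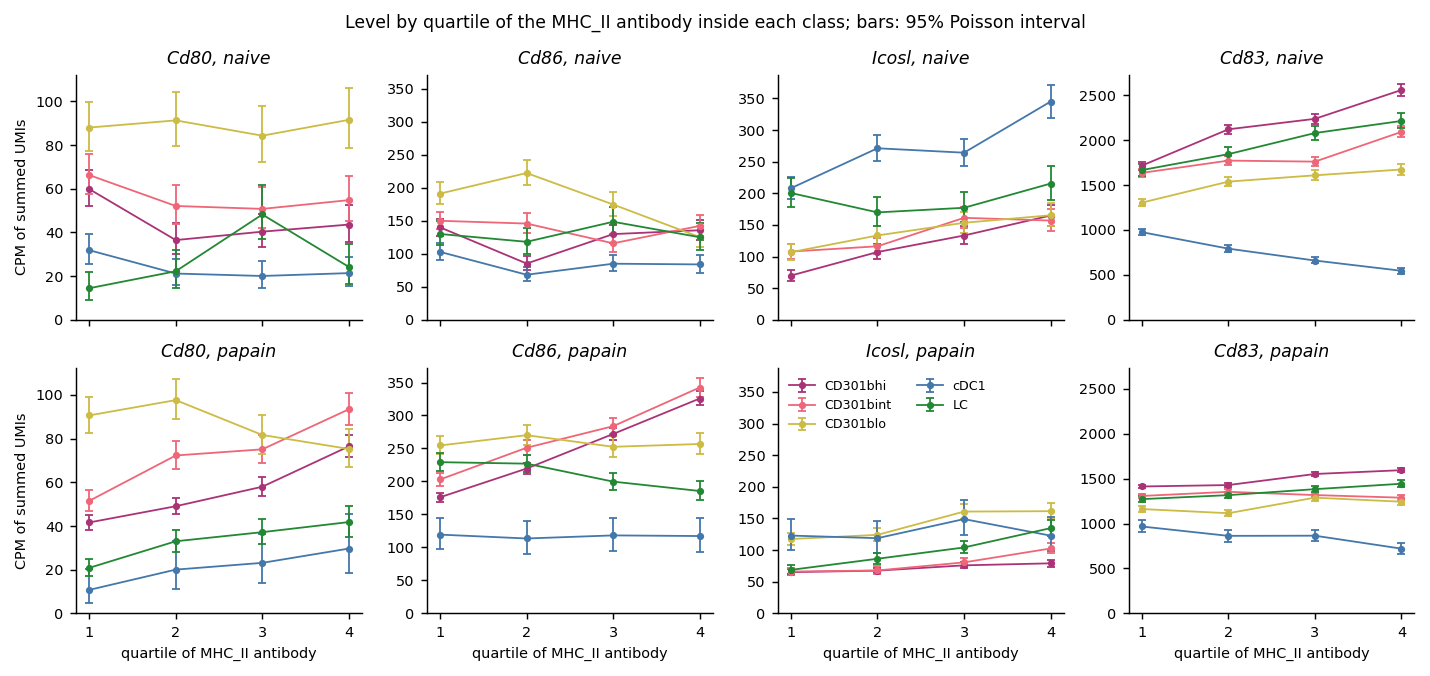
Level of each member (CPM of summed UMIs, from 0, 95% Poisson intervals) over the quartiles of the MHC_II antibody tag (1 lowest, 4 highest) in each DC class (colours), naive above and papain below. Cd86 climbs in papain CD301bhi cDC2s from 176 to 326 CPM, and Cd83 runs down in naive cDC1s from 976 to 545 CPM while it climbs in naive CD301bhi cDC2s.

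Single cells were asked whether the members were read together. Within each of the 10 class and library groups, the share of cells with UMIs of both genes of a pair was divided by the product of their single shares, after thinning. The Cd80 and Cd86 pair gave ratios from 1.08 to 1.54 with a median of 1.16, above 1 in 10 of 10 groups. In naive cDC1s 7.38% of cells held both where the product was 4.94%, and in papain CD301bhi cDC2s 21.8% where it was 19.1%. Cd80 with Icosl gave 0.85 to 1.08 with a median of 0.93, above 1 in 1 group, and Cd86 with Icosl had a median of 0.99. Pairs with Cd83 had medians of 1.00 to 1.01, as they must when nearly every cell is positive. In unthinned cells the Cd80 and Icosl median was 1.00.

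Counting Cd80, Cd86 and Icosl together, cells with no UMI of any made up 11.2% (8.95 to 13.7) of naive CD301bhi cDC2s, while papain CD301bhi cDC2s had 6.95% (6.05 to 7.94). The same shares, naive before papain, were 7.95% (5.60 to 10.9) and 3.75% (2.59 to 5.22) for LCs and 8.48% (6.34 to 11.1) and 17.4% (12.8 to 22.9) for cDC1s. UMIs of all 3 were held by 24.8% (21.5 to 28.3) of naive CD301blo cDC2s, the highest naive share, and by 22.7% (20.6 to 24.9) of the papain ones. LCs went from 8.64% (6.18 to 11.7) in naive to 21.6% (18.9 to 24.4) in papain cells. These shares move with depth, and median depth was 10768 UMIs in naive and 18290 in papain LCs.

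Over the 10 groups, Pearson r of log2(CPM + 1) described which genes were most like each member among 3287 genes with at least 50 CPM in some group. The groups come from 2 libraries and share their depth, so these values are descriptions with no test. Cd80 was most like Klrd1 (r = 0.98), then Gm13532, Gm12254, Marveld1 and Gm13436. Cd86 was most like Rpl21-ps11 (0.98), Rps15a-ps4, Rpl15-ps2, Rpl29 and Nostrin, and pseudogenes of ribosomal proteins can share reads with their parent genes. Icosl was most like Rc3h2 (0.95), then Pcbp2, Art2a, Rn7s1 and Dct, and Cd83 most like Zfp871 (0.98), Pde4b, Zfp36l1, Ndnf and Ptger4. Between members, r was 0.71 for Cd80 with Cd86, -0.76 for Cd86 with Icosl and -0.43 for Cd80 with Icosl.

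The other genes of the pathway were read from fixed lists, by the same mean over the 5 classes and against the same background of 7.07% higher and 8.99% lower. Of the other B7 family ligands, 3 reached 10 CPM, and 2 were past 1.5-fold higher in papain cells and none lower, with a median of 0.93. Cd274, which encodes PD-L1, had a log2 ratio of 0.93 and Pdcd1lg2, which encodes PD-L2, 1.03, with the widest changes in cDC1s, at 1.69 and 2.14. Vsir, which encodes the inhibitory ligand VISTA, had -0.43. By this mean Cd86, Cd274 and Pdcd1lg2 were past 1.5-fold higher and Icosl past it lower, while Cd80 and Vsir were within it. The classes differed, since in CD301bhi cDC2s Cd274 had 0.35 and Pdcd1lg2 0.31 where Cd86 had 0.99. In cDC1s Cd86 had 0.45.

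Of the T cell receptors for these ligands, Icos reached 10 CPM and Cd28, Ctla4 and Pdcd1 did not. Icos was past 1.5-fold lower in papain cells, at a log2 ratio of -1.44, and was highest in naive cDC1s at 75.8 CPM. Summed T cell markers (Cd3e, Cd3d, Trac and Trbc2) were also highest there, at 146 CPM against 8.36 to 43.7 CPM in the other groups. With every Cd3e+ or Trac+ cell left out, the Icosl ratio in cDC1s was -1.17.

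Of 15 genes that act on the members, 1 was past 1.5-fold higher and 1 lower, with a median of 0.13. Cd40, the receptor through which T cells license DCs, had 0.87, with 529 CPM in naive and 844 CPM in papain CD301bhi cDC2s. Ciita had -1.51. By the mean of the 5 classes the NF-kB subunit genes were within 1.5-fold, from -0.43 for Rel to 0.38 for Relb, but single classes were past it. Nfkb1 had -0.76 in cDC1s and 0.71 in LCs. Rel had -0.61 in CD301bhi cDC2s and -0.63 in both CD301bint cDC2s and LCs. Relb had 0.70 in cDC1s and 0.59 in CD301blo cDC2s. March1, the ubiquitin ligase that CD83 opposes, did not reach 10 CPM, with 1.37 to 8.45 CPM in naive cDC1s and cDC2s and 0.17 to 1.30 CPM in papain ones.

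Of 7 other costimulatory and adhesion ligands, none was past 1.5-fold higher and 1 was lower, Tnfsf4 (OX40 ligand) at -0.69, with a median of 0.21. Of 11 DC maturation genes, 4 were higher and none lower, with a median of 0.45. These were Ccl17, a chemokine for CCR4-bearing cells, at 1.11, Cd200, an inhibitory surface ligand, at 1.09, Socs2, a feedback inhibitor of cytokine signalling, at 0.81 and the tetraspanin Cd63 at 0.71. Ccr7 had -0.14, so the maturation list, like the members, moved unevenly. Between CD301bhi and CD301blo cDC2s, Cd40 was on the CD301bhi side with 1.36 in naive and 0.97 in papain cells, as was Pvr with 1.07 and 1.19, while Cd200 and Tnfsf4 were on the CD301blo side with Cd80, at -1.07 and -1.64 in naive cells.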

How the data were processed

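Single cells of 2 libraries were profiled by the study with the 10x 3' v3 chemistry, and per the labels the reads were processed with Cell Ranger 3.0.1 and Partek against mm10. The deposited expression values are log2(CPM + 1) per cell on the log2 scale. The deposited antibody tables hold antibody counts as totals and tag values on a natural log (ln) scale, normalized by the authors to a geometric mean. The deposited total of each expression row is a sum of log2 values, used here as a score only, and the deposited mitochondrial percent is a share of log2 values, so neither was used as a depth. The authors' classes (antibody gates) and mRNA clusters were taken from the files.

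UMIs were recovered from the deposited log2 values, since 1 UMI sets the smallest step of a cell. Below 50 UMIs, 100% of the recovered values lay within 0.02 of a whole number. UMIs were summed per class and library (Python 3.11.15, scipy 1.17.1, pandas 2.3.3). Depth per classified cell ran from 3637 to 50632 UMIs in naive and from 2682 to 56723 in papain cells. With 1 library per condition no test was run: levels have exact Poisson intervals, shares exact Clopper-Pearson intervals and ratios an exact binomial interval, all at 95% and all covering counting error only. A mean of the 5 classes has the averaged class bounds instead. The functions were tested on simulated data. Thinning took each cell to 8392 UMIs (the 10th percentile) by expectation. No doublet caller was run and none is named in the sources used here. Results without cells holding T or B cell transcripts and without the deepest 5% of cells stand in for it, and 5.98% of naive and 4.41% of papain cells held a Cd3e or Trac UMI. A B cell marker UMI was held by 19.2% of naive and 9.79% of papain cells, so leaving these out removes unequal shares. Ighm was also read in 55.7% of naive and 35.3% of papain T cell transcript droplets, so 1 such UMI is a weak sign of a doublet. Members and gene lists were chosen with earlier results of these data known. From each list, counts past 1.5-fold and the largest ratios are named. For likeness, the 5 genes of highest r are named. Of the listed genes, Vtcn1, Btn2a2 and Tnfsf18 were not analysed here. Of the B cell markers planned, 1 is not reported here, and the B cell sums and the leaving out of B cell marker cells use the other 4, a change made after seeing the data. Promoter sequences are from RefSeq, build GRCm38.p6.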

Additional observations from a re-analysis of the deposited data

Results flagged for a closer look

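Cd83 was higher in papain than in naive cDC1s, at a log2 ratio of 0.17, while it was lower in CD301bhi, CD301bint and CD301blo cDC2s and in LCs, with every counting interval off 0. Each condition is 1 library, so the difference between the classes was not tested. Over the alternatives tried, the cDC1 value ran from 0.10 without cells holding a Cd3e or Trac UMI to 0.29 as a mean over cells. Summed T cell markers stood at 146 CPM in naive and 20.5 CPM in papain cDC1s, and the part of such cells beyond that value was not tested. The cDC1 groups held 578 naive and 235 papain cells.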

How the results depend on the processing

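Leaving out a replicate could not be done with 1 library per condition, and the labels give no numbers by which libraries could be paired. No called ratio changed sign. Over 10 alternatives the papain against naive mean ran from 0.67 to 0.89 for Cd86, -0.88 to -0.64 for Icosl, 0.08 to 0.25 for Cd80 and -0.37 to -0.25 for Cd83. Of the papain against naive values under these alternatives, 42 left their counting interval and 170 did not. Those for the mean of the 5 classes, judged by its averaged class bounds, follow, and the cause was not tested. With all classes pooled the papain against naive value was 0.89 for Cd86, -0.88 for Icosl and -0.25 for Cd83. Without naive mRNA cluster 5, an alternative chosen after seeing the data, it was 0.83 for Cd86. For Cd83 it was -0.37 with the median gene set to 0 and -0.37 without cells holding a B cell marker UMI. Inside single classes, the calls that changed were Cd86 in CD301blo cDC2s (0.68 and 0.88, past 1.5-fold) and Cd83 in CD301bhi cDC2s (-0.60 with the median gene set to 0). Icosl in LCs was -0.80 as a mean over cells.

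For CD301bhi cDC2s against all other classes, in place of CD301blo, the naive values were -0.17 (Cd80), -0.13 (Cd86), -0.65 (Icosl) and 0.54 (Cd83), and the papain values -0.18 (Cd80), 0.0045 (Cd86), -0.49 (Icosl) and 0.23 (Cd83), so that the Cd80 calls and the papain Icosl call were lost and naive Icosl passed 1.5-fold. Without naive cluster 5, naive Cd86 was -0.28, and without Cd3e or Trac cells it was -0.59, past 1.5-fold. Thinning gave -1.12 for naive Cd80 and 0.36 for papain Cd83. Naive Cd83 was 0.55 with the median gene at 0, 0.46 without Cd3e or Trac cells and 0.40 without B cell marker cells. As a mean over cells, papain Cd86 was -0.026 and papain Icosl -1.06. Without B cell marker cells they were -0.14 and -0.86, and a pseudocount of 10 gave -0.87 for papain Icosl.

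At 2-fold in place of 1.5-fold the background was 135 higher and 324 lower genes for papain against naive (597 and 759 at 1.5-fold), 57 and 242 for naive CD301bhi against CD301blo (348 and 642) and 57 and 88 for papain (269 and 258). Without a CPM minimum, 1523 genes were lower in papain cells, 634 higher and 2443 lower in naive CD301bhi cDC2s, and 466 and 906 in papain ones. Asking for 2 UMIs or thinning to 11252 UMIs moved 39 of 40 and 31 of 40 shares beyond their counting intervals. The joint detection medians stayed inside their thinned ranges. Only 63 Cd80 UMIs in 235 papain cDC1s limit that class.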
